A study of Mus musculus with 4 samples.

Results

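The potassium channel genes of the mouse lymph node stroma were taken as the symbols that begin with Kcn, continue with a family letter code and end in a number, and 92 of the 32285 genes listed in the files matched. The set holds the pore-forming subunits of potassium channels and the auxiliary subunits that carry the same gene prefix. At least 1 transcript of 87 of the 92 genes was counted in the cells kept here. No transcript of Kcnf1, Kcns2, Kcnv1 or Kcnk9 was counted. The study sorted live CD45- CD31- stromal cells from the axillary, brachial and inguinal lymph nodes of 12-week-old female C57BL/6 mice and made 1 droplet library of 3′ transcript tags from each of 4 pools of mice. Each of 2 batches holds 1 Notch2 conditional knockout library, called Notch2 cKO here, and 1 control library. In batch 1 the Notch2 cKO pool carried Ccl19-Cre, Notch2 fl/fl and the reporter R26R-EYFP (6 mice), and its control was a non-littermate Ccl19-Cre x R26R-EYFP pool (6 mice). In batch 2 the Notch2 cKO pool was Ccl19-Cre x Notch2 fl/fl (3 mice), and its control was a littermate Notch2 fl/fl pool (3 mice), so both batch 2 groups carry the floxed allele and no reporter is named. The Cre is driven by the promoter of Ccl19, a chemokine gene of fibroblastic reticular cells, so recombination depends on a history of activity of that promoter and is not expected in every CD45- CD31- cell. Each library is 1 pool of mice, so the animals within a pool cannot be told apart. The genotype label of the batch 2 control names no Cre, while its sample title names Ccl19-Cre, and the genotype label was followed here.

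Potassium channels let potassium ions leave or enter a cell along their gradient and so set the resting membrane potential, the repolarisation after excitation and the drive for calcium entry. Inward rectifiers and two-pore background channels hold the resting potential, voltage-gated channels open on depolarisation, and the Slo and small-conductance families open on intracellular calcium, sodium or other signals. Silent voltage-gated subunits form no channel alone and modify other subunits, and auxiliary subunits change trafficking and gating. In blood vessels, ATP-sensitive, two-pore, voltage-gated and calcium-activated potassium channels are known to control the tone of pericytes and smooth muscle. Lymph node fibroblasts are electrically non-excitable cells that build the reticular network and produce the chemokines that place lymphocytes in zones.

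The pore-forming genes share the codons of the potassium selectivity filter. The selection by name did not read the sequence, but the Kcn prefix itself marks potassium channel genes. The shares below therefore describe the family and do not test the selection. The pattern searched was the codons NTN, GGN, TAN or TTN, and GGN in a row, read in frame on the coding strand of the longest coding sequence of each gene in the GENCODE M21 annotation of GRCm38. It was present in 75 of the 92 members (81.5%), against 1155 of all 21613 genes with a coding sequence (5.34%). Each of the 30 voltage-gated, 15 inward rectifier, 10 silent and 8 Slo and small-conductance members held it 1 time. Of the 14 two-pore members, 11 held it 2 times and 1 held it 1 time, and the pattern was not found in Kcnk1 and Kcnk7. None of the 15 auxiliary members held it. The sequences below are shown because they belong to the members that the results turn on, and because they make visible what the families share. Each is 30 coding bases read 5′ to 3′ with the searched pattern in capitals.
Kcnj8 (chr6:142564837-142571614, minus strand): caagtgaccATTGGGTTTGGAgggagaatg
Kcnk3, first pore (chr5:30588170-30625271, plus strand): atcaccaccATCGGCTATGGTcatgcggcg
Kcnk3, second pore: ctcaccaccATCGGCTTCGGCgactatgtg
Kcna1 (chr6:126640397-126646384, minus strand): atgaccactGTGGGATACGGTgacatgtac
Kcnd2 (chr6:21215503-21729805, plus strand): atgacaacaCTGGGGTATGGCgacatggta
Kcnq3 (chr15:65986387-66286642, minus strand): ctggccaccATTGGTTATGGAgacaagaca
Kcnh2 (chr5:24319589-24351604, minus strand): ctcaccagcGTGGGCTTTGGCaatgtctct
Kcnma1 (chr14:23289431-24014491, minus strand): atgtctacaGTGGGTTATGGGgacgtttat
Kcnt2 (chr1:140246158-140612067, plus strand): ttttctactGTGGGCTTTGGGgatgtcact
The positions are those of the whole genes on GRCm38 (mm10), which is the build named for these files. All capital runs shown differ from each other and keep the searched pattern. The form with TAN is that of Kcna1, Kcnd2, Kcnq3, Kcnma1 and the first pore of Kcnk3, and the form with TTN that of Kcnj8, Kcnh2, Kcnt2 and the second pore of Kcnk3.

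The libraries differed more between batches than between genotypes. The batch 1 libraries held 25644596 transcript counts (unique molecular identifiers, UMIs) in 8491 Notch2 cKO barcodes and 21533049 in 9891 control barcodes. The batch 2 libraries held 108144616 in 13452 Notch2 cKO barcodes and 119002408 in 18482 control barcodes. After filtering, 7817 and 12754 Notch2 cKO cells and 9053 and 17014 control cells remained, and 18 to 50 cell barcodes were shared between any pair of libraries. The file headers name Cell Ranger 5.0.1 for batch 1 and 7.1.0 for batch 2, and no source used here gives whether intronic reads were counted. Potassium channel genes took 0.0393% and 0.106% of the UMIs of the kept cells in Notch2 cKO batches 1 and 2, and 0.0285% and 0.0734% in control. In batch 2 these were 113834 UMIs in Notch2 cKO and 86059 in control. The single gene Kcnma1 gave 61556 and 26029 of them in fibroblasts alone, so these shares do not describe the whole family. Levels below are in CPM, a gene's UMIs scaled by the total UMIs of all kept cells of a gate in 1 library to the usual common total, so each library gives 1 value, and they are compared for 1 gene at a time because the assay reads transcript ends. Notch2 itself, the targeted receptor gene, had 15.4 and 36.8 CPM in Notch2 cKO and 42.0 and 57.9 CPM in control in the T-zone gate described next, a log2 difference of -1.07 ± 0.23, adjusted p = 0.028 (± SE; edgeR's quasi-likelihood test in a model that holds batch, Benjamini-Hochberg adjusted over all genes). The labels do not name the deleted exon, so a 3′ tag may lie outside it and the remaining counts do not measure recombination.

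Cell types were set as marker gates. Cells of each library were clustered without any potassium channel gene, and each cluster was assigned to a gate where the CPM of 1 to 3 defining genes passed set levels. The gates were called T-zone (high Ccl21a, a chemokine of T-cell zone reticular cells, and low Inmt), marginal (Tnfsf11, Cxcl13 and Bst1), follicular dendritic (Cr2), adventitial (Pi16), medullary (Inmt and Cyp2f2), perivascular (Rgs5 and Cox4i2), smooth muscle (Myh11 and Cnn1) and Schwann (Sox10 among its defining genes). The T-zone gate held 3916 and 5092 Notch2 cKO cells and 4546 and 5718 control cells. The marginal gate held 92 and 725 Notch2 cKO cells and 426 and 278 control cells, the adventitial gate 290 and 97 against 108 and 217, and the medullary gate 1300 and 1146 against 1559 and 4105. The other 4 gates were met only in batch 2, with 106 Notch2 cKO and 229 control follicular dendritic cells, 515 and 706 perivascular cells, 97 and 282 smooth muscle cells, and 95 and 118 Schwann cells. In each gate all of its markers were detected in every library, with summed marker levels of 14920 and 15110 CPM in Notch2 cKO and 4202 and 14040 CPM in control for the marginal list, where the batch 1 control stood apart as the lowest. The medullary list summed to 3653 and 3649 CPM in Notch2 cKO and 3485 and 2118 CPM in control, lowest in the batch 2 control. The largest medullary cluster of that library, with 1720 of 4105 cells, had 0 medullary markers among its 10 leading genes. Ccl21a, as a measure of transcripts carried over between droplets, had 5149 and 4231 CPM in the batch 2 Schwann gates of Notch2 cKO and control and 962 and 739 CPM in the perivascular gates, against 16908 and 14403 CPM in the T-zone gates. The perivascular gate took only clusters under 4000 CPM of Ccl21a, and the Schwann gate had no such limit. The perivascular values are thus bounded by the gate rule and do not measure carry-over. The part of carry-over in low levels outside a gene's leading gate was not tested.

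Of the 92 members, 62 reached 1 CPM, 43 reached 5 CPM and 22 reached 20 CPM in the mean over libraries of at least 1 gate. Kcna1, which encodes an axonal voltage-gated subunit, averaged 1428 ± 385 CPM in the Schwann gate (SD, n = 2), and Kcnma1, the pore of the large-conductance calcium-activated (BK) channel, averaged 1071 ± 371 CPM in the follicular dendritic gate.

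**Figure D1:**
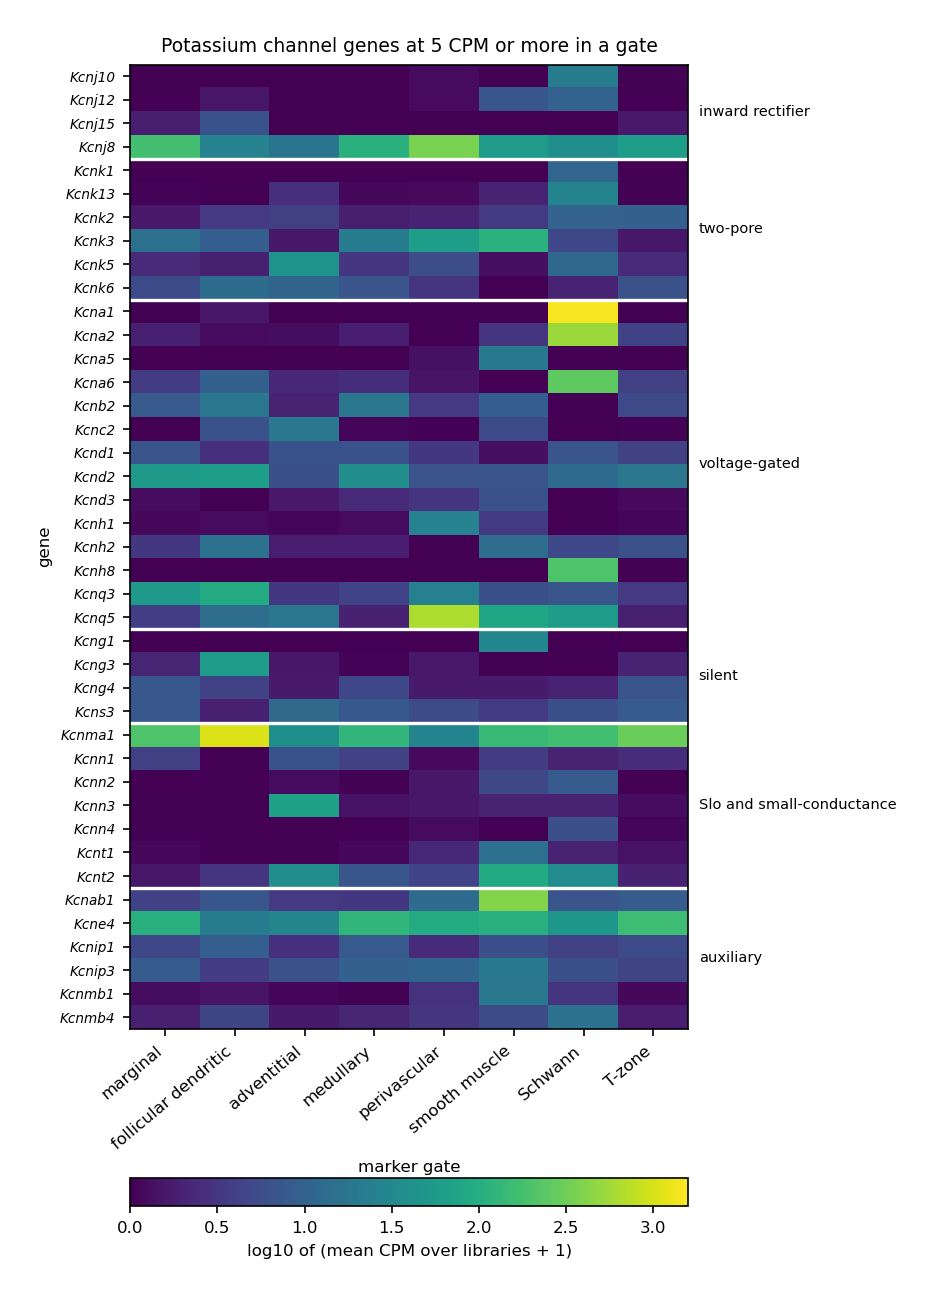
Heat map of 41 of the 43 potassium channel genes with a mean of 5 CPM or more in at least 1 gate; rows are genes grouped by role, columns are marker gates, and colour is log10 of the mean CPM over libraries plus 1 (both batches, 4 libraries, in the marginal, adventitial, medullary and T-zone columns and the 2 batch 2 libraries in the others, so the columns differ in batch). The rows of Kcna1, Kcna2, Kcna6 and Kcnh8 are brightest in the Schwann column, those of Kcnq5 and Kcnj8 in the perivascular column, and that of Kcnma1 in the follicular dendritic column.

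Each gate was compared with the T-zone gate of the same libraries, with the library as a block. In the adventitial gate 9 of 29 tested members were higher and 12 lower, against 14.4% and 18.9% of all genes tested (33.4% in all). In the medullary gate 10 of 33 tested members were higher and 6 lower, against 15.3% and 16.1% of all genes tested (31.3% in all), and in the marginal gate 6 of 29 tested members were higher and 4 lower, against 7.36% and 9.36% of all genes tested (16.7% in all). These 3 comparisons used 4 libraries. The comparisons below used the 2 batch 2 libraries, which leaves 1 residual degree of freedom, so directions and levels are given for them with the log2 fold change and without individual p-values. In the follicular dendritic gate 13 of 39 tested members were higher and 5 lower, against 13.2% and 16.1% of all genes tested (29.3% in all). In the perivascular gate 7 of 42 tested members were higher and 11 lower, against 13.0% and 18.2% of all genes tested (31.1% in all). In the smooth muscle gate 13 of 40 tested members were higher and 8 lower, against 11.2% and 15.1% of all genes tested (26.3% in all), and in the Schwann gate 11 of 41 tested members were higher and 5 lower, against 8.53% and 11.1% of all genes tested (19.6% in all). Members had to pass a filter on low counts in each comparison, so these are shares of the genes that passed: 55 of the 92 members were tested somewhere and 43 passed a gate test somewhere. The share of all genes that passed somewhere is not given here, so the 43 of 55 does not set the members apart from other genes. The median log2 difference of the tested members was -0.02 in the adventitial, 0.52 in the medullary and 0.02 in the marginal comparison, beside -0.10, -0.02 and 0.01 over all genes. The adventitial count was 12 in place of 21 without the batch 2 control library, and the marginal count was 5 in place of 10 without the batch 2 Notch2 cKO library and 1 after clustering with another random seed. The gates were drawn from the same cells that are compared, so the tests describe these gates as drawn.

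**Figure D2:**
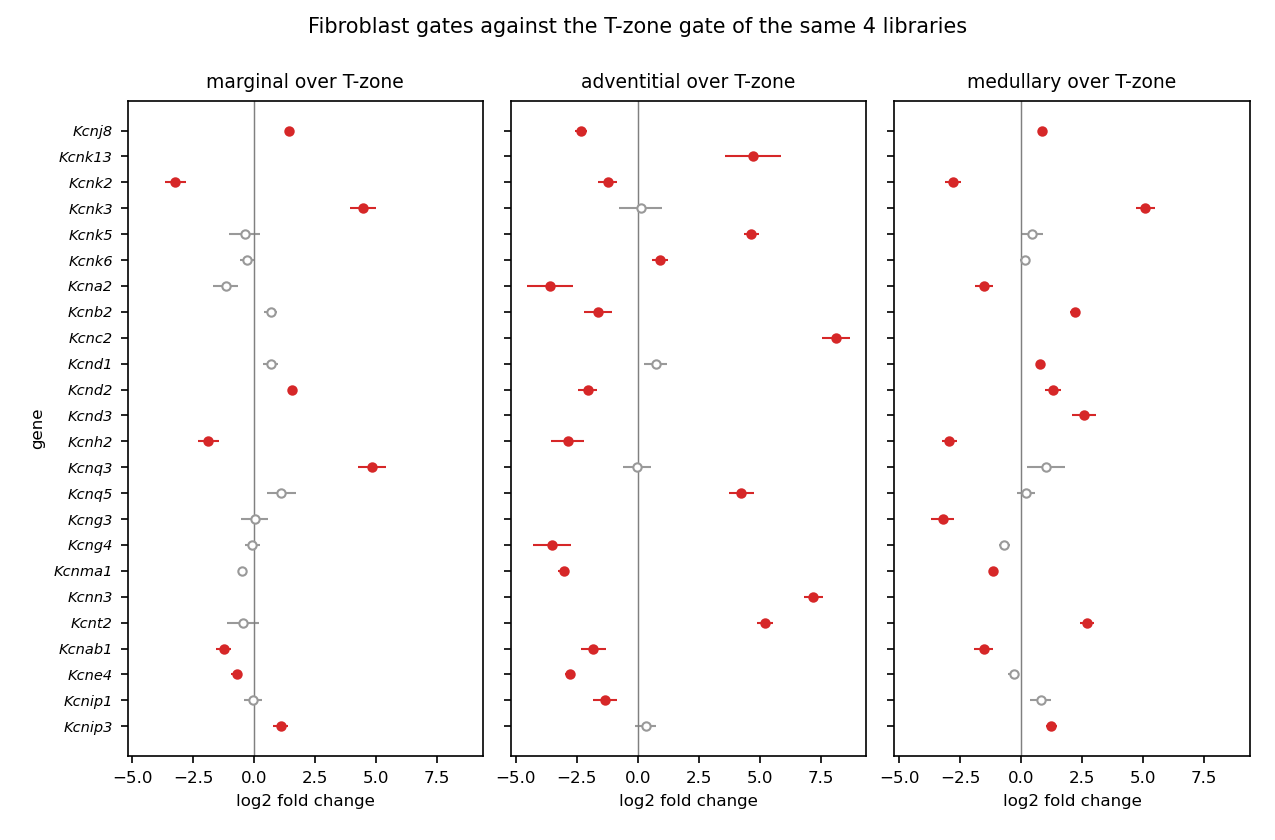
Log2 fold change (point) and its standard error (bar) of the marginal, adventitial and medullary gates over the T-zone gate in 4 libraries, for the potassium channel genes of the heat map that passed the test in at least 1 of the 3 comparisons; filled red points passed at an adjusted p under 0.05 open grey points did not, and a missing point is a gene that was not tested. Kcnj8 lies right of 0 in the marginal and medullary panels and left of 0 in the adventitial panel, while Kcnn3, Kcnt2 and Kcnk5 lie far right in the adventitial panel.

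Among the inward rectifiers, Kcnj8, the pore of the vascular ATP-sensitive channel, had its highest level in the perivascular gate and was higher in the marginal and medullary than in the T-zone fibroblasts. Its level was 451 CPM in the Notch2 cKO library and 276 CPM in the control library in the perivascular gate. In the marginal gate it was 171 and 198 CPM in Notch2 cKO and 177 and 159.7 CPM in control, and in the medullary gate 80.0 and 140.0 CPM in Notch2 cKO and 98.8 and 103 CPM in control. The T-zone gate held 43.2 and 72.3 CPM in Notch2 cKO and 55.2 and 69.3 CPM in control, below both fibroblast gates in each library. Kcnj8 was higher in the perivascular gate (log2 2.03), in the marginal gate (log2 1.43 ± 0.13, adjusted p = 3.1e-05) and in the medullary gate (log2 0.84 ± 0.08, adjusted p = 0.00040). It was lower in the adventitial gate, at 5.38 and 18.4 CPM in Notch2 cKO and 29.8 and 12.2 CPM in control (log2 -2.32 ± 0.24, adjusted p = 1.1e-06). In the 2 batch 2 libraries, which all gates share, the order of its means ran perivascular, marginal, medullary, T-zone, smooth muscle, Schwann, follicular dendritic, adventitial, and of the neighbours in this order the follicular dendritic and adventitial ranges overlapped.

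Abcc9, which encodes the sulphonylurea receptor subunit that assembles with Kcnj8, is not a member of the set, and its means in batch 2 ran perivascular, marginal, medullary, T-zone. Abcc9 had 1075 CPM in the Notch2 cKO library and 876 CPM in the control library in the perivascular gate, 890.4 and 975 CPM in Notch2 cKO and 513 and 747 CPM in control in the marginal gate and 595 and 759.6 CPM in Notch2 cKO and 549 and 627 CPM in control in the medullary gate. The T-zone gate held 228 and 265 CPM in Notch2 cKO and 206 and 303 CPM in control. It was higher than in the T-zone gate in the perivascular (log2 1.49), marginal (log2 1.50 ± 0.14, adjusted p = 3.7e-05) and medullary gates (log2 1.37 ± 0.09, adjusted p = 0.00012) and lower in the adventitial gate (log2 -1.69 ± 0.18, adjusted p = 1.3e-06). Abcc8, the other receptor gene of this family, had 0 counts in both Notch2 cKO and control perivascular gates.

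Other inward rectifiers were low. Kcnj13 had 297 counts in the kept cells and was called in 0 of the 8 comparisons that tested it. Kcnj10, known from glia, had 20.1 CPM in the Notch2 cKO library and 24.0 CPM in the control library in the Schwann gate (10 and 12 counts), against 0.0559 and 0.0203 CPM in the T-zone gates of the same libraries. Kcnj15 had 2.22 CPM in the Notch2 cKO library and 8.42 CPM in the control library in the follicular dendritic gate, from 2 and 18 counts. Only Kcnj8, Kcnj10 and Kcnj15 of the 15 inward rectifiers passed a gate test, and 4 of the 15 reached 5 CPM in a gate.

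The two-pore background channels differed in the fibroblast gate that held them. Kcnk3, an acid-sensitive channel of vascular smooth muscle, was near 0 in the T-zone gate, with 0.0695 and 0.559 CPM in Notch2 cKO and 0.0868 and 1.72 CPM in control. It had 6.33 and 35.4 CPM in Notch2 cKO and 14.4 and 28.8 CPM in control in the medullary gate and 10.3 and 22.9 CPM in Notch2 cKO and 8.97 and 14.4 CPM in control in the marginal gate. Every library was higher in the medullary and in the marginal gate than in its T-zone gate, with log2 differences of 5.09 ± 0.39, adjusted p = 0.00018 and 4.44 ± 0.53, adjusted p = 0.00022. The 6 marginal markers summed to 3261 and 7534 CPM in Notch2 cKO and 2774 and 4579 CPM in control in the medullary gate, against 1212 and 2019 CPM in Notch2 cKO and 886 and 1865 CPM in control in the T-zone gate. Of the 3 medullary clusters of the batch 2 control, 1 had 3 marginal beside 3 medullary markers among its 10 leading genes, and it held 45.1 CPM of Kcnk3, against 20.8 and 19.4 CPM in the other two. The part of marginal transcripts in the medullary differences of Kcnk3 and of other genes high in both gates was not tested. The batch 1 marginal values rest on 3 counts in Notch2 cKO and 10 in control. The mural gates were higher still: Kcnk3 had 138 CPM in Notch2 cKO and 79.0 CPM in control in the smooth muscle gate and 76.8 CPM in Notch2 cKO and 44.2 CPM in control in the perivascular gate (log2 6.28 and 5.47 over T-zone).

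Kcnk2, a channel opened by stretch and lipids, had the reverse pattern. The T-zone gate held 9.73 and 9.13 CPM in Notch2 cKO and 8.59 and 7.097 CPM in control, against 0 and 0.872 CPM in Notch2 cKO and 0 and 1.79 CPM in control in the marginal gate and 0.506 and 0.735 CPM in Notch2 cKO and 0.612 and 1.68 CPM in control in the medullary gate. It was lower in the marginal gate (log2 -3.23 ± 0.43, adjusted p = 0.00051) and in the medullary gate (log2 -2.80 ± 0.32, adjusted p = 0.00084) in all 4 libraries. Kcnk5, an alkaline-activated channel, marked the adventitial gate, with 47.3 and 35.4 CPM in Notch2 cKO and 51.1 and 38.9 CPM in control there, against 1.04 and 1.58 CPM in Notch2 cKO and 0.781 and 2.29 CPM in control in the T-zone gate. The groups of gates did not overlap, and the log2 difference was 4.65 ± 0.31, adjusted p = 6.7e-09. Kcnk6 was also higher there (log2 0.91 ± 0.32, adjusted p = 0.040), and Kcnk7 was lower (log2 -3.16 ± 1.02, adjusted p = 0.025) on 1 count in all 4 adventitial sums. Kcnk13 had 12.0 CPM in the Notch2 cKO library and 42.0 CPM in the control library in the Schwann gate and at most 0.1304 CPM in a T-zone gate.

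The Kcnq genes, whose products carry slowly activating voltage-gated currents, differed in the gates that held them. Kcnq5 had 655 CPM in the Notch2 cKO library and 616 CPM in the control library in the perivascular gate, against 0.9499 and 2.60 CPM in the T-zone gates of the Notch2 cKO and control libraries of batch 2. That is a log2 difference of 8.30, and the smooth muscle gate (74.6 CPM in Notch2 cKO and 81.1 CPM in control) and Schwann gate (64.2 CPM in Notch2 cKO and 49.96 CPM in control) came next. The adventitial gate held 1.08 and 35.4 CPM in Notch2 cKO and 4.26 and 27.7 CPM in control, higher than T-zone (log2 4.25 ± 0.51, adjusted p = 6.1e-06), but on 1 count in each batch 1 library.

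In batch 2, Kcnq3 was highest in the marginal and follicular dendritic gates. It had 6.85 and 68.6 CPM in Notch2 cKO and 2.69 and 136 CPM in control in the marginal gate, where the batch 1 values rest on 2 and 3 counts, and 86.4 CPM in Notch2 cKO and 95.4 CPM in control in the follicular dendritic gate. The T-zone gate held 0 and 0.615 CPM in Notch2 cKO and 1.13 and 7.85 CPM in control. The marginal gate was higher in all 4 libraries (log2 4.83 ± 0.57, adjusted p = 0.00022), and so was the follicular dendritic gate in both libraries of batch 2 (log2 4.77). In the medullary gate Kcnq3 had 0 and 6.74 CPM in Notch2 cKO and 0.306 and 6.60 CPM in control and did not pass the test (log2 1.01 ± 0.79, adjusted p = 0.38). Kcnk3 passed the test in both the marginal and the medullary gate, and whether the 2 genes differ in this was not tested.

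**Figure D3:**
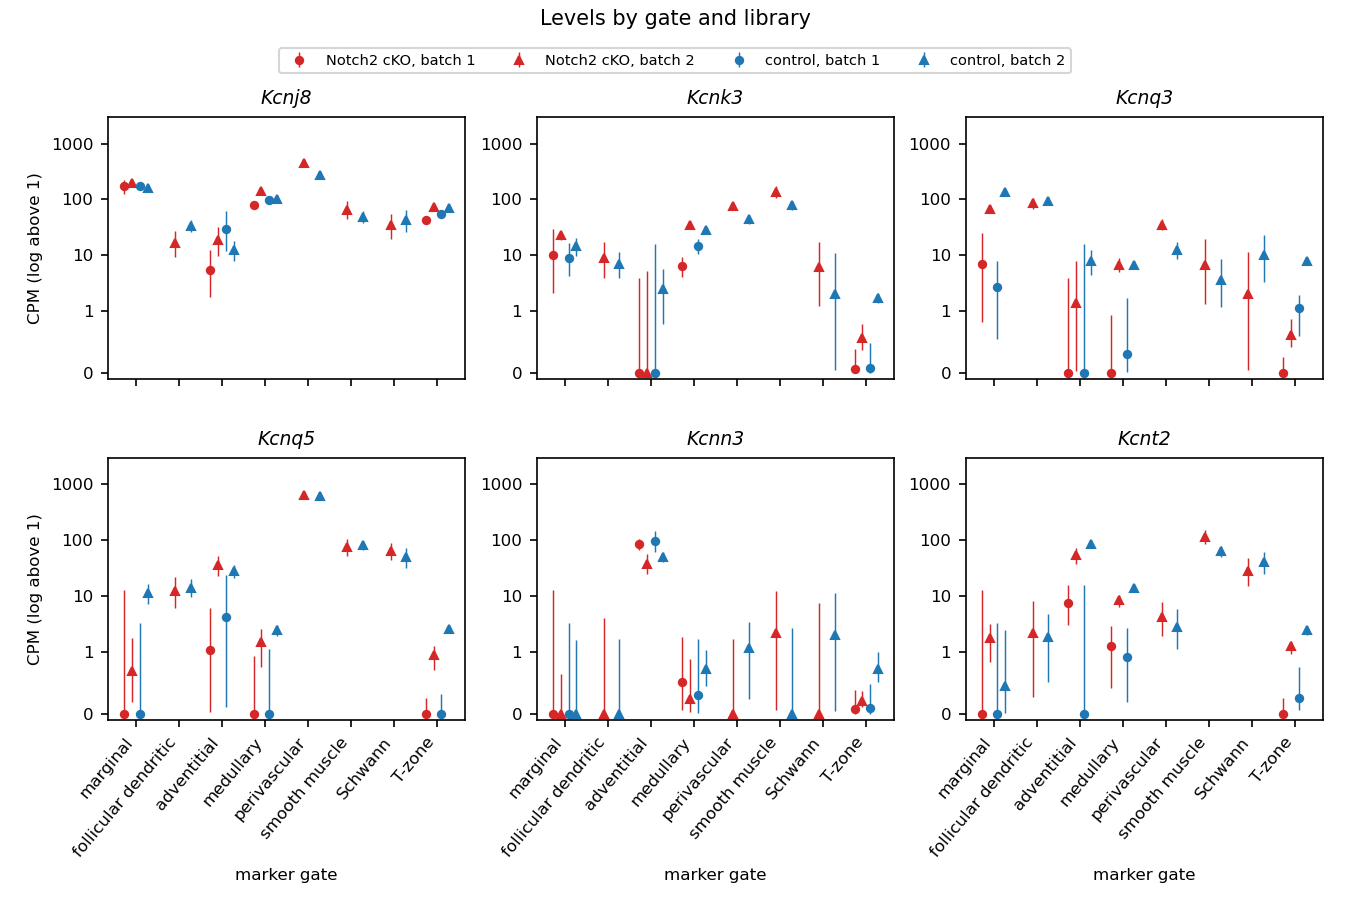
CPM of Kcnj8, Kcnk3, Kcnq3, Kcnq5, Kcnn3 and Kcnt2 in each marker gate (x axis) and library (points; red for Notch2 cKO, blue for control, circles for batch 1, triangles for batch 2), with exact 95% Poisson intervals of the count as bars, on an axis that is linear to 1 CPM and logarithmic above. Kcnq5 lies at 655 CPM (Notch2 cKO) and 616 CPM (control) in the perivascular gate, and the 4 adventitial points of Kcnn3 lie above all its others.

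The classical voltage-gated genes were led by the Schwann gate. Kcna1 had 1156 CPM in the Notch2 cKO library and 1701 CPM in the control library there (576 and 851 counts) and 2 and 3 counts in the T-zone gates of the same libraries. Kcna2, which forms axonal channels together with Kcna1, had 397 CPM in Notch2 cKO and 651 CPM in control, and Kcna6 had 187 CPM in Notch2 cKO and 319.8 CPM in control. Kcnh8, of the ether-a-go-go family, had 239 CPM in Notch2 cKO and 179.9 CPM in control in the Schwann gate and 3 and 4 counts in T-zone. Kcna1 had 1 count in all sums of the marginal, follicular dendritic, adventitial, perivascular and smooth muscle gates together, whereas Kcna2 and Kcna6 had low levels in fibroblasts. Kcna2 was lower in the adventitial gate, with 1.08 and 0 CPM in Notch2 cKO and 0 and 0 CPM in control against 5.91 and 2.03 CPM in Notch2 cKO and 3.47 and 1.78 CPM in control in T-zone (log2 -3.59 ± 0.94, adjusted p = 0.0073).

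Smooth muscle and pericytes had further voltage-gated genes. Kcna5, a subunit of vascular muscle, had 11.0 CPM in the Notch2 cKO library and 26.6 CPM in the control library in the smooth muscle gate and no count in any T-zone gate. Against the level that 3 counts over both T-zone sums would give, its summed smooth muscle level was 780.2-fold higher. This ratio leaves out the counting error of the smooth muscle counts, so it is not a lower limit. Kcnh1 was a gene of the perivascular gate, with 29.9 CPM in Notch2 cKO and 20.3 CPM in control, against 0.149 and 0.243 CPM in T-zone (log2 6.67). In smooth muscle Kcnh1 had 0 CPM in Notch2 cKO and 5.03 CPM in control and did not pass the filter on low counts.

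Fibroblast zones also differed in voltage-gated genes. Kcnb2, a delayed rectifier, had 2.53 and 32.8 CPM in Notch2 cKO and 3.06 and 31.0 CPM in control in the medullary gate, against 0.417 and 9.42 CPM in Notch2 cKO and 0.434 and 5.94 CPM in control in the T-zone gate (log2 2.19 ± 0.18, adjusted p = 0.00020). Kcnd2, which carries the fast-inactivating A-type current, had 0 and 46.6 CPM in Notch2 cKO and 8.08 and 155 CPM in control in the marginal gate and 2.28 and 63.2 CPM in Notch2 cKO and 3.67 and 77.9 CPM in control in the medullary gate. Its T-zone levels were 0.695 and 13.7 CPM in Notch2 cKO and 2.86 and 52.6 CPM in control, and both gates were higher by the test although the batch 1 Notch2 cKO marginal sum held 0 counts (log2 1.53 ± 0.15, adjusted p = 7.2e-05 and 1.30 ± 0.31, adjusted p = 0.018). Within a genotype, the batch 2 library was above the batch 1 library by more than the gates differed. Kcnd3, of the same family, was higher in the medullary gate on 2 to 76 counts a library (log2 2.58 ± 0.48, adjusted p = 0.0067). Kcnc2, a fast delayed rectifier, had 5.38 and 21.3 CPM in Notch2 cKO and 8.52 and 36.5 CPM in control in the adventitial gate. In the T-zone gate it had 10 counts over the 4 libraries, and the log2 difference was 8.13 ± 0.57, adjusted p = 1.3e-08. Kcnc2 also had 5.54 CPM in Notch2 cKO and 5.14 CPM in control in the follicular dendritic gate, from 5 and 11 counts.

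Kcnh2, the hERG channel of cardiac repolarisation, was higher in the T-zone than in the other 3 fibroblast gates tested with 4 libraries. It had 10.5 and 5.77 CPM in Notch2 cKO and 2.17 and 2.72 CPM in control in the T-zone gate, against 2.28 and 0.612 CPM in Notch2 cKO and 0 and 0.274 CPM in control in the medullary gate and 6.85 and 1.74 CPM in Notch2 cKO and 0 and 0.449 CPM in control in the marginal gate. It was lower in the medullary gate (log2 -2.94 ± 0.32, adjusted p = 0.00063), the marginal gate (log2 -1.88 ± 0.43, adjusted p = 0.012) and the adventitial gate (log2 -2.88 ± 0.69, adjusted p = 0.0040). No count was seen in the perivascular gates, whereas the follicular dendritic gate held 17.7 CPM in Notch2 cKO and 11.7 CPM in control, higher than T-zone (log2 1.74).

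Of the silent subunits, Kcng3 marked the follicular dendritic gate and Kcng1 the smooth muscle gate. Kcng3 had 63.1 CPM in the Notch2 cKO library and 48.6 CPM in the control library, against 2.16 and 1.24 CPM in the T-zone gates (log2 4.94), and it was lower in the medullary gate (log2 -3.22 ± 0.46, adjusted p = 0.0022) on 6 counts in all. Kcng1 had 32.9 CPM in Notch2 cKO and 25.9 CPM in control in smooth muscle and 1 count over both T-zone gates of batch 2, a summed ratio of 2842 with an exact interval of 488 to 114431 for counting error. Kcns3 was lower in the follicular dendritic gate, with 0 CPM in Notch2 cKO and 1.87 CPM in control, against 6.17 and 11.5 CPM in T-zone. Kcng4 had 7.37 and 7.49 CPM in Notch2 cKO and 4.25 and 4.30 CPM in control in T-zone and 2 counts in all adventitial sums (log2 -3.52 ± 0.76, adjusted p = 0.0018).

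The BK pore gene Kcnma1 had 95942 counts in the kept cells. The follicular dendritic gate held 1333 CPM in the Notch2 cKO library and 808 CPM in the control library, against 743 and 298 CPM in the T-zone gates of the Notch2 cKO and control libraries (log2 1.01). The adventitial gate held 16.1 and 82.2 CPM in Notch2 cKO and 17.0 and 36.5 CPM in control and the medullary gate 51.6 and 262 CPM in Notch2 cKO and 15.6 and 174 CPM in control. Both were lower than the T-zone levels of 118 and 743 CPM in Notch2 cKO and 38.7 and 298 CPM in control, with log2 differences of -3.04 ± 0.21, adjusted p = 1.4e-08 and -1.15 ± 0.13, adjusted p = 0.00076. In batch 2 the perivascular gate had the lowest level of the 8 gates, with 36.8 CPM in Notch2 cKO and 16.7 CPM in control. Lrrc26, which encodes an auxiliary gamma subunit of the BK channel, had 36.5 CPM in Notch2 cKO and 35.1 CPM in control in the follicular dendritic gate and 1 and 2 counts in the T-zone gates. Kcnmb1, the beta subunit of smooth muscle, had 15.4 CPM in Notch2 cKO and 20.8 CPM in control in the smooth muscle gate, against 0.149 and 0.345 CPM in T-zone. Kcnmb4, the beta subunit of nervous tissue, was higher in the Schwann gate, with 22.1 CPM in Notch2 cKO and 7.99 CPM in control from 11 and 4 counts.

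Kcnn3, a small-conductance calcium-activated channel, marked the adventitial gate. It had 83.9 and 38.3 CPM in Notch2 cKO and 97.9 and 50.1 CPM in control there, against 0.0695 and 0.205 CPM in Notch2 cKO and 0.0868 and 0.730 CPM in control in the T-zone gate. All 4 adventitial values were above every value of any other named gate, and the log2 difference was 7.20 ± 0.40, adjusted p = 9.8e-10. Fibroblasts with Cd34 but little Pi16 held 3.35 and 1.12 CPM in Notch2 cKO and 0 and 0.687 CPM in control. Kcnt2, a sodium-activated channel, was high in both of these classes in batch 2. It had 7.53 and 53.9 CPM in Notch2 cKO and 0 and 87.04 CPM in control in the adventitial gate and 13.4 and 142 CPM in Notch2 cKO and 7.94 and 66.3 CPM in control in the Cd34-positive, Pi16-low fibroblasts. Its T-zone levels were 0 and 1.25 CPM in Notch2 cKO and 0.260 and 2.41 CPM in control, and it was higher in the adventitial gate (log2 5.20 ± 0.33, adjusted p = 5.6e-09) and in the medullary gate (log2 2.71 ± 0.29, adjusted p = 0.00063). The smooth muscle gate held 116 CPM in Notch2 cKO and 63.2 CPM in control. Kcnt1, its relative, was met in smooth muscle at 15.4 CPM in Notch2 cKO and 12.2 CPM in control, from 7 and 17 counts.

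Among the auxiliary genes, Kcnab1 was highest in smooth muscle and Kcne4 in the T-zone gate in batch 2. Kcnab1, the beta subunit that speeds inactivation of voltage-gated channels, had 476 CPM in the Notch2 cKO library and 332 CPM in the control library in the smooth muscle gate, against 5.38 and 19.7 CPM in T-zone (log2 4.97). Kcne4, a single-span modifier of Kcnq and other channels, had 204 and 169 CPM in Notch2 cKO and 106 and 155 CPM in control in the T-zone gate. It was lower in the adventitial gate, at 26.9 and 19.8 CPM in Notch2 cKO and 38.3 and 24.8 CPM in control (log2 -2.77 ± 0.21, adjusted p = 2.6e-08), and in the follicular dendritic gate, at 14.4 CPM in Notch2 cKO and 28.5 CPM in control (log2 -2.96). In the medullary gate it had 172 and 70.9 CPM in Notch2 cKO and 131 and 134 CPM in control and did not pass the test (log2 -0.31 ± 0.23, adjusted p = 0.33). Kcnip3, a calcium-binding partner of the Kcnd channels, was higher in the medullary (log2 1.24 ± 0.21, adjusted p = 0.0044) and marginal gates (log2 1.08 ± 0.30, adjusted p = 0.030), where Kcnd2 was also higher. Dpp10, another Kcnd partner, had 25.5 CPM in Notch2 cKO and 34.6 CPM in control in the follicular dendritic gate, against 0.1304 and 0.223 CPM in T-zone.

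Between genotypes, 7 potassium channel genes differed in the T-zone gate. Notch2 is a receptor whose cleaved intracellular part acts with the factor Rbpj on target genes, and the study compared stroma with and without its deletion. With batch as a term, 3 of 37 tested members were higher in Notch2 cKO and 4 were lower, against 2.44% and 2.14% of 15766 genes tested (4.59% in either direction). Kcna6, Kcnma1 and Kcnh2 were higher, and Kcnd2, Kcnq3, Kcnab1 and Kcns3 were lower. The median log2 difference of the 37 was -0.18, beside 0.03 over all genes. The calls hold only with batch as a term: without it no member passed, and none passed when any 1 library was left out, which removes the batch term. The fit has 1 residual degree of freedom, and the quasi-likelihood test draws each gene's variance towards that of other genes. The p-values thus rest largely on variance shared over genes in these 4 pools, not on each gene's own spread. The gate comparisons with 1 residual degree of freedom were given without individual p-values, and the genotype p-values below carry the same limit. DESeq2 with the same design called 5 members, 2 higher and 3 lower, beside 321 higher and 290 lower of all 15766 genes tested. Beside these calls, 7 T-zone markers summed to 15790 and 20920 CPM in Notch2 cKO and 24120 and 21390 CPM in control. The 7 immediate early and dissociation genes summed to 27950 and 16980 CPM in Notch2 cKO and 18280 and 18320 CPM in control, and the part of either list in the calls was not tested.

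Kcna6 had 6.60 and 4.40 CPM in the Notch2 cKO T-zone gates of batches 1 and 2 (95 and 236 counts), against 0.434 and 0.771 CPM in control (5 and 38 counts). The groups did not overlap, and the log2 difference was 2.92 ± 0.44, adjusted p = 0.0046. Its ratio of Notch2 cKO to control was 15.2 (6.30 to 48.0) in batch 1 and 5.71 (4.04 to 8.26) in batch 2, where brackets hold exact 95% intervals for counting error. Kcna6 is also a gene of the Schwann gate, and the summed level of 6 Schwann markers in the T-zone gate was 25.2 and 30.1 CPM in Notch2 cKO and 13.5 and 15.8 CPM in control, with 2 of the 6 at 0 in each batch 1 library. In the Schwann gate itself that sum was 7962 CPM in Notch2 cKO and 5382 CPM in control, and the part of Schwann transcripts in the Kcna6 difference was not tested. Kcna1, another gene of the Schwann gate, had 2 counts in the Notch2 cKO and 3 in the control T-zone gate of batch 2.

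Kcnma1 had 118 and 743 CPM in Notch2 cKO, against 38.7 and 298 CPM in control. It was higher in Notch2 cKO within each batch, with ratios of 3.05 (2.74 to 3.39) and 2.49 (2.44 to 2.54), while the batch 1 Notch2 cKO value lay below the batch 2 control value. Its log2 difference was 1.42 ± 0.26, adjusted p = 0.012. Without the batch 2 Notch2 cKO library it was -0.50 and without the batch 2 control library it was 3.30. Over the T-zone clusters of a library it ranged from 174 to 1083 CPM in batch 2 Notch2 cKO and from 242 to 420.1 CPM in batch 2 control. Kcnh2 had 10.5 and 5.77 CPM in Notch2 cKO, against 2.17 and 2.72 CPM in control, without overlap. Its log2 difference was 1.55 ± 0.36, adjusted p = 0.041, with ratios of 4.84 (3.16 to 7.72) and 2.13 (1.73 to 2.62).

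Kcnd2 had 0.695 and 13.7 CPM in Notch2 cKO, against 2.86 and 52.6 CPM in control. The ratio was nearly the same in both batches, 0.243 (0.107 to 0.504) and 0.261 (0.240 to 0.283), and the log2 difference was -2.03 ± 0.25, adjusted p = 0.0016. Kcnq3 had 0 counts in the batch 1 Notch2 cKO T-zone gate, against 13 in control, and 0.615 CPM in batch 2 Notch2 cKO, against 7.85 CPM in control. Its ratio in batch 2 was 0.0783 (0.0532 to 0.112), and the batch 1 interval ran up to 0.263 (adjusted p = 0.0024). Both genes are also higher in the marginal than in the T-zone gate, and the summed level of 6 marginal markers in the T-zone gate was 1212 and 2019 CPM in Notch2 cKO and 886 and 1865 CPM in control, and the part of these markers in the differences was not tested. Without the batch 2 Notch2 cKO library the log2 difference of Kcnq3 was -9.83 and without the batch 2 control library it was -1.92, while that of Kcnd2 was -5.29 and 1.16. Clusters led by markers of another type had been moved out of the T-zone gates, all of them in Notch2 cKO libraries. A moved batch 2 cluster of 483 cells had Cxcl13 among its leading genes. Without this step the Kcnq3 log2 difference was smaller in size than its -3.94, as given in the section on processing.

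Kcnab1 had 0.556 and 5.38 CPM in Notch2 cKO, against 4.08 and 19.7 CPM in control, with ratios of 0.136 (0.0557 to 0.291) and 0.273 (0.239 to 0.312) and a log2 difference of -2.20 ± 0.30, adjusted p = 0.0028. Without the batch 2 Notch2 cKO library the log2 difference was -4.41 and without the batch 2 control library it was -0.61. Within the batch 2 control T-zone gate its clusters ranged from 4.38 to 71.0 CPM, so its level was uneven inside the gate. Kcnab1 is highest in smooth muscle, and 7 smooth muscle markers summed to 769 and 941 CPM in the Notch2 cKO T-zone gates and 1131 and 928 CPM in control. The 7 perivascular markers summed to 525 and 539 CPM in Notch2 cKO and 865 and 703 CPM in control, and their part in the result was not tested. Kcns3 had 2.50 and 6.17 CPM in Notch2 cKO, against 8.85 and 11.5 CPM in control, without overlap, and a log2 difference of -1.33 ± 0.29, adjusted p = 0.030. Without the batch 2 Notch2 cKO library it was -2.03 and without the batch 1 Notch2 cKO library it was -0.81.

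**Figure D4:**
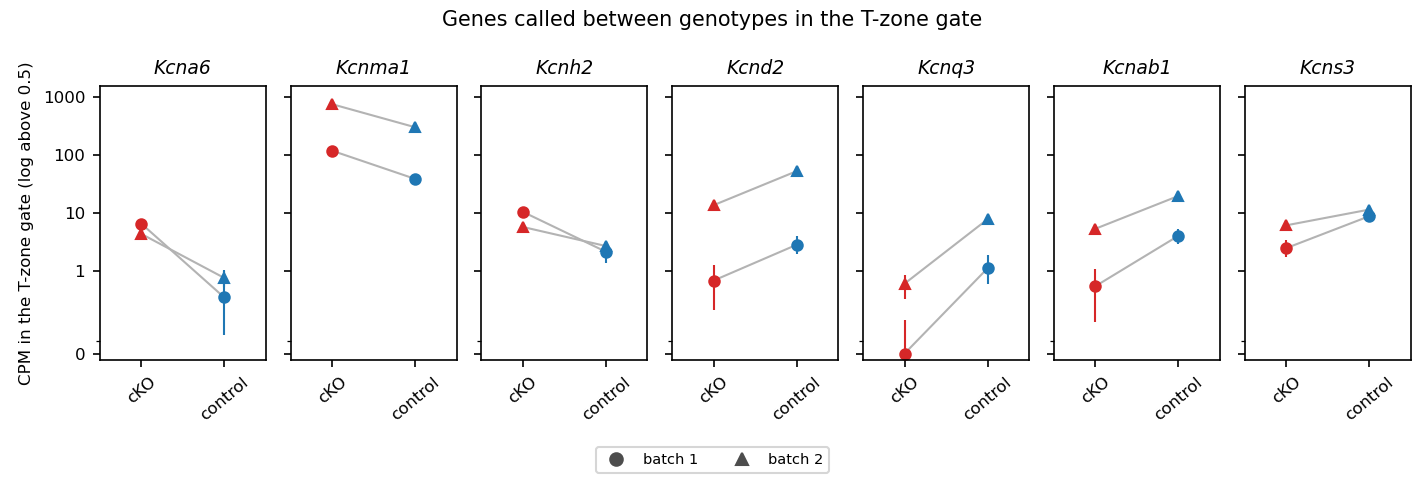
CPM of the 7 potassium channel genes called between genotypes, in the T-zone gate of each library; Notch2 cKO (red) stands left of control (blue), circles are batch 1, triangles batch 2, grey lines join the libraries of a batch, bars are exact 95% Poisson intervals of the count, and the axis is linear to 0.5 CPM and logarithmic above. In each panel both grey lines slope the same way, downward to control for Kcna6, Kcnma1 and Kcnh2 and upward for Kcnd2, Kcnq3, Kcnab1 and Kcns3.

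The promoters of these 7 genes were searched for GTGGGAA, the core of the site bound by Rbpj, or its reverse complement TTCCCAC. RefSeq promoters (GRCm38.p6, 250 bases before to 50 after the start) were matched for 6 of the 7 genes, all but Kcnq3, with 9 promoters. The core was in 2 of these 9, that of Kcnh2, which was higher in Notch2 cKO, and 1 of the 3 of Kcnab1, which was lower. The matched Kcnh2 promoter lies at a start inside the gene, whose 5′ end is at 24351604 on the minus strand. The sequence at that 5′ end was not among those searched. It was in 5 of the 92 promoters of all 67 matched members (5.43%) and in 2097 of all 32851 promoters (6.38%). A match is a description of letters and not a bound site. Both promoters that held the core are shown, with the core in capitals.
Kcnh2 (chr5:24329542-24329841, minus strand): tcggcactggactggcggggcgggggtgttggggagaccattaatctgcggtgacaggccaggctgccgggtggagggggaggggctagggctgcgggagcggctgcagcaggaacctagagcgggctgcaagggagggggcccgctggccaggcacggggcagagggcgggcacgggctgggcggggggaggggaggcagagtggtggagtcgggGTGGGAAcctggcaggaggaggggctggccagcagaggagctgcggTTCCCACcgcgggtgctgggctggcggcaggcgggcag
Kcnab1 (chr3:65108764-65109063, plus strand): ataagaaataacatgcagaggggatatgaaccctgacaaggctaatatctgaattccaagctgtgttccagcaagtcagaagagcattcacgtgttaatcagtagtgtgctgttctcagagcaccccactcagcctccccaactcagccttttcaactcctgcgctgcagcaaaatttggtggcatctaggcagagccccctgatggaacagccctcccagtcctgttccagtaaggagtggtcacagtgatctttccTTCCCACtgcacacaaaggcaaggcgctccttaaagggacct
Kcnh2 held the core 1 time on each strand, and this promoter of Kcnab1 held it 1 time as TTCCCAC.

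Over all fibroblasts together, 2 of 49 tested members were higher in Notch2 cKO and 2 were lower, against 1.37% and 0.944% of all genes tested (2.31% in all). These were Kcnma1 (log2 1.39 ± 0.22, adjusted p = 0.015), Kcnh2 (log2 1.87 ± 0.35, adjusted p = 0.028), Kcnd2 (log2 -1.58 ± 0.23, adjusted p = 0.0095) and Kcnab1 (log2 -1.38 ± 0.29, adjusted p = 0.046). The zonal gene Kcnk3 had 1.48 and 5.38 CPM in Notch2 cKO and 3.37 and 12.2 CPM in control over all fibroblasts and narrowly missed the threshold (log2 -1.24 ± 0.27, adjusted p = 0.051). The mix of zones differs between libraries, so this comparison holds changes of cell shares as well as of levels within cells, and the 2 cannot be told apart in it.

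In the other gates no member passed the genotype test. By edgeR none of 13 tested members passed in the marginal gate, none of 10 in the adventitial gate and none of 19 in the medullary gate, where 0.114%, 0.316% and 0.0159% of all genes passed. Split by direction, 0.0763% of all genes were higher and 0.0381% lower in the marginal gate, 0.0937% and 0.222% in the adventitial gate, and 0% and 0.0159% in the medullary gate. The medullary result depended on the settings. Over all genes 0 were higher and 2 lower there, against 244 and 227 with a stricter cell filter and 194 and 111 with stricter gates. With these 2 settings 2 members and 1 member were called. At an unadjusted p under 0.05 there were 0 higher and 3 lower of the 13 members in the marginal gate. There were 1 and 0 of 10 in the adventitial gate and 2 and 0 of 19 in the medullary gate. At that threshold all genes gave 202 higher and 338 lower of 10490 in the marginal gate. They gave 162 and 239 of 8542 in the adventitial gate and 305 and 504 of 12556 in the medullary gate. DESeq2 called 0 members in each of the 3 gates. Kcnd2 in the marginal gate of batch 2 had 46.6 CPM in Notch2 cKO, against 155 CPM in control, a ratio of 0.300 (0.255 to 0.353). In batch 1 it had 0 counts in Notch2 cKO, against 9 in control, and the gate's log2 difference was -1.88 ± 0.36, adjusted p = 0.11. In the medullary gate of batch 2 the Kcnd2 ratio was nearer to 1, at 0.811 (0.736 to 0.893). Kcnma1 had 51.6 and 262 CPM in Notch2 cKO and 15.6 and 174 CPM in control in the medullary gate, higher in Notch2 cKO within both batches, and did not pass (log2 0.99 ± 0.31, adjusted p = 0.56).

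Whether the genotype difference itself differs between the adventitial and the T-zone gate was tested as an interaction. By edgeR 0 of 29 members passed, against 1.40% of all genes (0.513% higher and 0.886% lower), and by DESeq2 0 members passed. At an unadjusted p under 0.05 by edgeR, 4 members were higher and 1 lower, against 410 and 575 of all 13654 genes tested. Kcnd2 had the interaction estimate 2.17 ± 0.76, adjusted p = 0.20, and Kcns3 had 1.46 ± 0.58, adjusted p = 0.35. The perivascular gate holds 1 library of each genotype, so there is no replicate check. In it Kcnj8 had 451 CPM in Notch2 cKO and 276 CPM in control, a ratio of 1.63 (1.48 to 1.80). Kcnk3 had 76.8 CPM in Notch2 cKO and 44.2 CPM in control with a ratio of 1.74 (1.36 to 2.23), and Kcnq3 had 35.4 CPM in Notch2 cKO and 12.3 CPM in control with a ratio of 2.87 (1.87 to 4.50). Kcnq5, at 1.06 (0.988 to 1.14), had a ratio near 1. The intervals cover counting error only and compare these 2 libraries, not the genotypes.

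Genes that work beside potassium channels were read from 2 lists. Of 30 potassium handling partners (subunits of the sodium pump, cation-chloride cotransporters, Hcn channels and channel partners), 1 was higher and 4 were lower of 18 tested in Notch2 cKO in the T-zone gate, Fxyd6 being the higher and Atp1b1, Atp1b2, Hcn2 and Lrrc55 the lower ones, where 4.59% of all genes passed. Atp1b1, a beta subunit of the sodium pump, had 13.8 and 14.4 CPM in Notch2 cKO and 28.5 and 28.9 CPM in control there (log2 -1.06 ± 0.20, adjusted p = 0.017). Against the T-zone gate, the higher and lower partners were 4 and 2 of 17 tested in the marginal, 8 and 3 of 17 in the medullary and 6 and 6 of 17 in the adventitial gate. They were 4 and 9 of 20 in the follicular dendritic, 8 and 2 of 19 in the perivascular, 6 and 3 of 18 in the smooth muscle and 10 and 2 of 20 in the Schwann gate. Of all genes tested, 16.7% passed in the marginal, 31.3% in the medullary, 33.4% in the adventitial, 29.3% in the follicular dendritic, 31.1% in the perivascular, 26.3% in the smooth muscle and 19.6% in the Schwann gate. Of 27 calcium entry and anion channels, 2 were higher and 1 lower of 22 tested in Notch2 cKO in the T-zone gate (Cacna1d and Piezo2 higher, Ano1 lower). Against the T-zone gate, with the same shares of all genes, they were 8 higher and 0 lower of 22 tested in the marginal, 6 and 4 of 22 in the medullary and 8 and 8 of 22 in the adventitial gate. They were 12 and 2 of 23 in the follicular dendritic, 13 and 5 of 25 in the perivascular, 15 and 4 of 26 in the smooth muscle and 2 and 2 of 22 in the Schwann gate. The calcium-activated chloride channel Ano1 was higher in the marginal (log2 3.19 ± 0.26, adjusted p = 1.6e-05) and medullary gates (log2 3.28 ± 0.22, adjusted p = 0.00013). The pacemaker channel gene Hcn4 was higher in the adventitial gate (log2 6.55 ± 0.69, adjusted p = 1.4e-06).

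Potassium channel genes with long introns had higher levels in batch 2 than in batch 1. Over all fibroblasts, the log2 ratio of batch 2 to batch 1 was 4.89 in Notch2 cKO and 4.37 in control for Kcnd2, which has 509 kb of intron. For Kcnma1, with 708 kb of intron, it was 2.92 in Notch2 cKO and 3.03 in control. Kcne4, with 0.614 kb of intron, had -0.37 and 0.34. Members with at least 100 kb of intron had a median of 2.93 in Notch2 cKO (7 genes) and 3.65 in control (9 genes), against -0.17 (19 genes) and 0.04 (18 genes) for the others. Across these genes, which share libraries and are not replicates, the correlation with log10 intronic length was r = 0.65 and rho = 0.58 in Notch2 cKO and r = 0.77 and rho = 0.72 in control. Kcnk2, at 189 kb, stayed near 0 in both genotypes (0.06 in Notch2 cKO and -0.13 in control). Kcnn3, at 145 kb, had -2.58 in Notch2 cKO and 0.50 in control, beside adventitial shares of 3.71% and 0.761% of the cells in Notch2 cKO batches 1 and 2 and 1.19% and 1.28% in control. The counting of intronic reads was not tested as the cause.

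**Figure D5:**
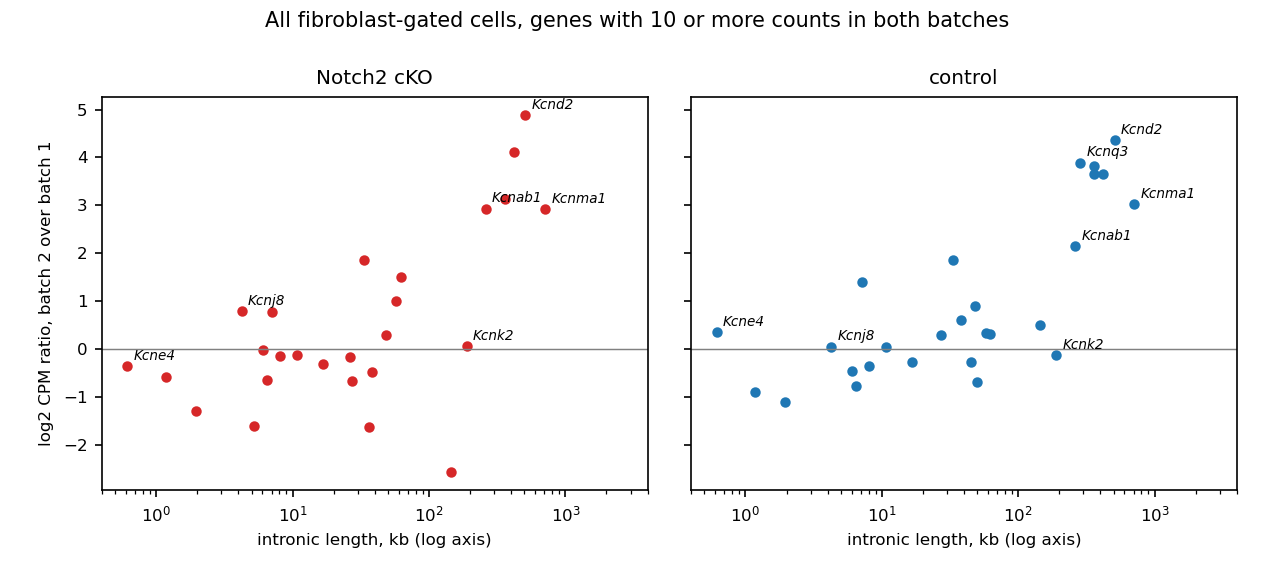
Log2 ratio of CPM in batch 2 over batch 1 (y axis) against intronic length in kb on a log axis, for potassium channel genes with 10 or more counts in both batches over all fibroblast-gated cells; Notch2 cKO is left and control right, and each point is a gene. Kcnd2 and Kcnma1 lie at the upper right in both panels, with 4.89 and 2.92 in Notch2 cKO and 4.37 and 3.03 in control, and Kcne4, Kcnj8 and Kcnk2 lie within 1 of 0.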

How the data were processed

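The files hold raw counts of transcripts (UMI counts) per gene and cell barcode, as deposited by the authors, for 4 droplet libraries of lymph node stroma (10x 3′ v3.1 chemistry, per the labels). The file headers name Cell Ranger 5.0.1 for batch 1 and 7.1.0 for batch 2, while the submitters' processing notes name 5.0.1 and the build mm10 for all libraries, and no source used here gives whether introns were counted. The cell filter asked for 500 genes, 1000 UMIs and a mitochondrial share of no more than 10%. They were clustered per library (2000 variable genes, 30 components, Leiden resolution 1.5, leidenalg 0.10.2) without the potassium channel genes, Abcc8 and Abcc9. Clusters were gated on marker CPM, at levels set after marker levels but not channel levels had been seen. Of 102 clusters, 5 were moved out of a gate because markers of another type led them, 4 of these from T-zone gates of Notch2 cKO. No doublet caller was run; cells above 3 times the median UMI count were left out in 1 alternative instead.

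Counts were summed per library and gate, and edgeR 4.0.16 (quasi-likelihood, TMM, filterByExpr, Benjamini-Hochberg over all genes tested, threshold 0.05; limma 3.58.1, R 4.3.3) was fitted with batch or library as a term. Cells are not replicates. The labels state the batch, and same-batch libraries deviated together, with correlations of 0.767 over all fibroblasts, 0.749 in the T-zone gate and 0.713 in the medullary gate. DESeq2 1.42.0, library-size scaling, no filter, stricter cells or gates, fits without the block and fits without each library were alternatives, and 4 more were chosen after seeing the data. Scripts were tested on simulated data. Intervals are exact 95% Poisson or ratio intervals and cover counting error only, since the libraries give 1 value per pool. The perivascular genotype comparison (1 library a group) has no test.

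Members and lists were chosen with earlier results of these data known. The genes named are the 4 examples of the selection (Kcnk3, Kcnq3, Kcnt2, Kcnj8), the 16 members with the highest level in a gate, every member called between genotypes, and the 3 called members with the largest change in each direction in each gate comparison that had 1 sign in every library. Other genes named were chosen after their values were seen. Results for some members and 2 of the coding stretches are not reported here.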

Additional observations from a re-analysis of the deposited data

Results flagged for a closer look

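Kcne4 had log2 ratios of Notch2 cKO to control of opposite sign in 2 gates. In the marginal gate the ratio was -0.321 in batch 1 and -0.871 in batch 2. In the T-zone gate it was 0.949 in batch 1 and 0.129 in batch 2. By edgeR's quasi-likelihood test neither genotype difference passed, with a log2 difference of -0.71 ± 0.28, adjusted p = 0.85 in the marginal gate and 0.50 ± 0.27, adjusted p = 0.46 in the T-zone gate. The difference between the gates was not tested, and not every one of the counting intervals excludes a ratio of 1.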

How the results depend on the processing

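Of 144 results, the numbers of members called moved by more than 1.5 times under these settings. Without the replicate block, the T-zone and all-fibroblast genotype counts were 0 each (7 and 4 with it), and the zonal counts were 3 in the marginal, 9 in the follicular dendritic, 10 in the adventitial, 2 in the medullary, 11 in the perivascular, 12 in the smooth muscle and 10 in the Schwann gate (10, 18, 21, 16, 18, 21 and 16 with it). Leaving out 1 library gave 0 to 0 in the T-zone and all-fibroblast genotype comparisons, 0 to 1 in the marginal genotype comparison (1 without the batch 2 control), 5 to 11 in the marginal and 12 to 19 in the adventitial zonal comparison. Genotype fits without a library drop the batch term, and comparisons of 2 libraries then have no test. In all fibroblasts, library-size scaling gave 1 and a stricter cell filter 2. In the marginal genotype comparison, no filter on low counts gave 2 and leaving out high-UMI cells 1, against 0. In the medullary one, the stricter cell filter gave 2 and stricter gates 1, against 0. DESeq2 gave 6 in the marginal and 13 in the smooth muscle comparison, another Leiden seed 1 in the marginal and Leiden resolution 1 gave 11 in smooth muscle. The causes were not tested.

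Without the batch 2 control, the log2 differences of Kcnab1 and Kcnd2 in all fibroblasts turned to 0.083 and 1.85, and that of Kcnd2 in the T-zone gate to 1.16. Without the batch 2 Notch2 cKO library, Kcnma1 turned to -0.66 in all fibroblasts and -0.50 in the T-zone gate. Over the left-out libraries Kcnab1 ranged down to -3.22 and Kcnd2 to -5.24 in all fibroblasts, Kcnd2 to -5.29 (T-zone), and Kcnma1 up to 3.36 in all fibroblasts and 3.30 in the T-zone gate. In the T-zone gate Kcnab1 ranged from -4.41 to -0.61, Kcnq3 from -9.83 to -1.92 and Kcns3 from -2.03 to -0.81, and Kcnq3 was -2.14 with no leading-gene condition. The fits without a library have no batch term, so the remaining groups differ in batch. Kcnab1 turned to 0.79 in the marginal comparison with another Leiden seed. Under the stricter cell filter Kcnj8, Kcnk2 and Kcns3 turned to 0.049, 0.18 and 0.17 in the smooth muscle comparison. Over the gene results and settings, 89 of 154 genotype values kept direction and call, 60 lost the call and 5 reversed. Of 1324 zonal values, 1125 kept both, 195 lost the call and 4 reversed. Stricter gates and no leading-gene condition left the all-fibroblast fit unchanged, at 239 genes higher and 165 lower. The all-fibroblast values under these 2 settings count as kept without having been put to a test.

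Library-size scaling moved the share of higher calls over all genes to 58.5% from 44.0% in the marginal, 56.2% from 45.0% in the follicular dendritic, 64.3% from 41.6% in the perivascular, 58.8% from 42.5% in the smooth muscle and 63.7% from 43.5% in the Schwann comparison. It also moved it to 46.7% from 29.6% in the adventitial and 55.6% from 0.0% in the medullary genotype comparison. These 2 shares rest on few calls. They were 7 higher and 8 lower, against 8 and 19 with TMM, in the adventitial and 5 and 4, against 0 and 2, in the medullary comparison. The members' log2 values shifted by medians of 0.129, 0.288, 0.244 and 0.287 in the follicular dendritic, perivascular, smooth muscle and Schwann comparisons. Member calls were then 10 higher and 10 lower in the perivascular gate (7 and 11 with TMM) and 13 and 4 in smooth muscle (13 and 8). Depth limits the batch 1 marginal and adventitial gates, where many members have 0 to 3 counts.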

Other observations

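Some members were highest in clusters outside the 8 gates. Kcnab2, a beta subunit of voltage-gated channels, had 10.7 to 14.3 CPM over the 4 libraries in leukocyte clusters, against at most 2.34 CPM in any of the 8 gates. Kcnn4, the intermediate-conductance calcium-activated channel of blood cells and epithelia, had 19.9 to 43.9 CPM in leukocyte and 8.75 to 41.9 CPM in epithelial clusters, against at most 6.02 CPM. Kcnk1, a two-pore channel, had 46.8 to 132 CPM in epithelial clusters, against at most 16.1 CPM. The epithelial values of Kcnn4 and Kcnk1 rest on 21 and 129 counts over the 4 libraries.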
